A study of Mus musculus with 12 samples.

Results

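The genes described here are the chemokines, interleukins and colony-stimulating factors on the array, together with Nfkbia and Nfkbie, 2 inhibitors of the transcription factor NF-kappaB. They were chosen by name alone: every non-control probe whose gene name is Cxcl or Ccl with a number, Cx3cl1, Il with a number, Csf1, Csf2, Csf3, Nfkbia or Nfkbie. The name Lif was also searched and no probe carries it. The rule found 85 probes for 67 of the 27962 named features. A member counted as detected when the scanner software marked its spot as well above background on each of the 4 arrays of some genotype. That held for 29 of the 67 genes, through 36 probes. Further probes of Ccl19, Cx3cl1, Il7, Il16 and Il24 did not count as detected. On the brightest probe of each gene, 22 of the 29 were well above background on all 12 arrays. The other 38 genes were not detected, among them Il1b, Il10, Cxcl2, Cxcl9, Ccl3, Ccl4, Csf2 and Csf3. Of these 38, 13 were well above background on 0 arrays and the rest on at most 8. Detected members were 8 of 14 CXC and CX3C chemokines, 8 of 19 CC chemokines, 10 of 29 interleukins, 1 of 3 colony-stimulating factors and both NF-kappaB inhibitors.

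The cells were mouse embryonic fibroblasts (MEFs), connective tissue cells grown from embryos, of 3 genotypes at the gene for the NAD-dependent deacetylase SIRT1: wild type (WT), heterozygous (Het) and homozygous, named knockout in the labels (KO). Each genotype had 4 arrays, numbered 1, 2, 3 and 5 in WT cells and 2, 3, 4 and 5 in the others. All cells are given as female and untreated. The culture medium held 25 mM glucose, 4 mM glutamine and 10% serum. The labels give neither the mouse strain, the embryonic age nor the deleted part of Sirt1, and do not say whether the replicates were separate cultures or embryos, so the p-values rest on a spread that may be technical.

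Chemokines are small secreted proteins that attract leukocytes and other cells through G protein-coupled receptors, and their families are named for the spacing of their first cysteines. Fibroblasts release some of them, such as the Cxcl12 of bone marrow stroma, without stimulation, and others, such as Cxcl1, Ccl2 and the interleukin Il6, after signals that free NF-kappaB from its inhibitors. IkappaB-alpha, the product of Nfkbia, holds NF-kappaB in the cytoplasm and is itself made from an NF-kappaB target gene. SIRT1 is known to deacetylate the NF-kappaB subunit RelA.

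Levels below are log2 signals from which the array's own 75th percentile was subtracted, so 0 is that percentile and 1 unit is a doubling. A probe's level is compared between arrays and never with that of another probe. Differences are log2 differences of genotype means with their standard error (SE) from 1 limma fit of all 12 arrays, and a gene was called at a Benjamini-Hochberg adjusted p under 0.05 over all 16989 tested features. With 4 against 4 arrays the smallest exact two-sided permutation p is 0.0286, which every pair of genotypes that do not overlap reaches.

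Some arrays stood apart before any gene is considered. Pairs of arrays of 1 genotype correlated at 0.925 to 0.969 when they included number 3 and at 0.970 to 0.998 otherwise. The array labelled WT replicate 3 carried Xist, the RNA of the inactive X chromosome, at −2.94 against 1.66 to 3.42 on the other 11 arrays. It carried Y-linked Ddx3y at 1.04 against at most −4.35. Both go against its female label. Ddx3y was also highest of its genotype on number 3 of Het (−4.35) and KO (−5.28). A second Ddx3y probe was so in WT and Het but not in KO cells. Y-linked Eif2s3y stood at 0.92, −3.92 and −5.02 on number 3 of WT, Het and KO, the highest of each. On slide 4, with the arrays numbered 5 of all genotypes and KO replicate 4, 76.9 to 77.8% of probes were well above background, against 59.7 to 64.8% on the other 8 arrays. Of 2 Sirt1 probes, the level of 1 was −0.47 ± 0.29 (SD, n = 4) in KO cells against 0.36 ± 0.21 in WT cells, while the other stood at 0.81 ± 0.41 and 0.79 ± 0.24. All 16 fibroblast markers listed were well above background on all 12 arrays.

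Of the 29 detected members, 5 were called in at least 1 comparison, each higher in the genotype named first. In KO against WT, 4 were higher: Cxcl12, Cxcl14, Nfkbie and Ccl27. Cxcl12 and Cxcl14 were also higher in KO against Het, and Cx3cl1 was higher in Het against WT. No member was called lower. Over all tested features 1.17% were called in Het against WT, 1.64% in KO against WT and 0.995% in KO against Het. For 2, 6 and 4 members in the same order, no array of either genotype reached into the range of the other, which held for 9.28%, 8.84% and 10.6% of all features. The median difference of the 29 members was 0.28, 0.04 and −0.01, beside 0.08, 0.08 and −0.02 over all features. In Het against WT 19 of the 29 stood higher in the mean, in KO against WT 16 and in KO against Het 14. The comparisons share arrays, so the 3 sets of values are not independent. Some differences below are also given without the 3 arrays numbered 3. In that setting 2071, 2934 and 1521 of the 16989 features were called, against 199, 278 and 169 with all arrays, so a call there is far more common.

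**Figure D1:**
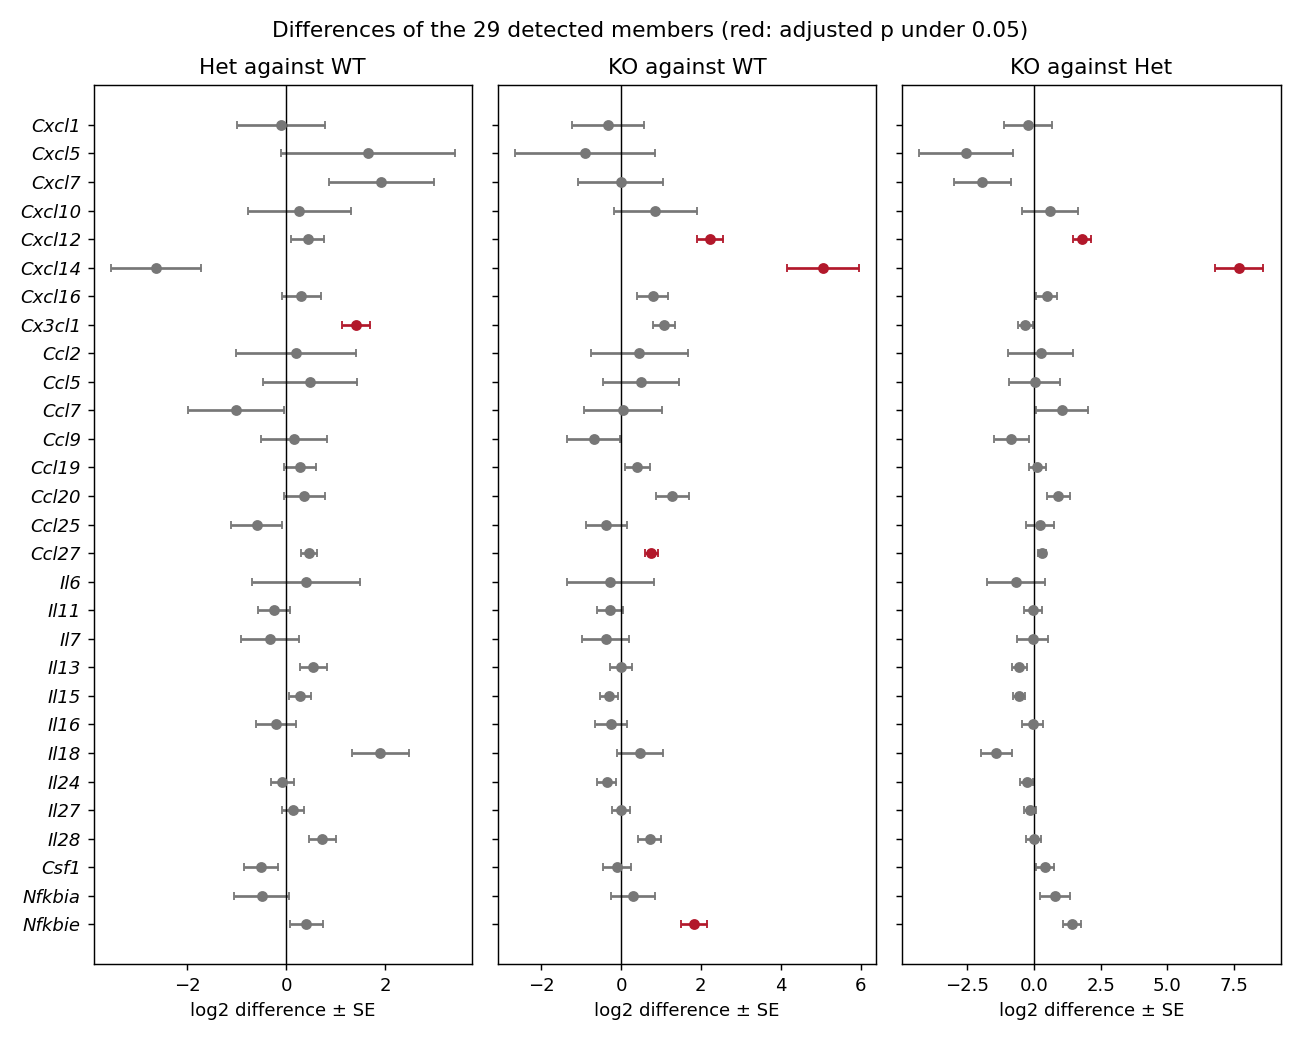
Log2 difference (x axis, in log2 units, with its own range in each panel) of each of the 29 detected members (y axis), 1 panel per comparison, with bars of 1 SE from the limma fit of 12 arrays. Red marks the calls at adjusted p under 0.05: Cx3cl1 in Het against WT, Cxcl12, Cxcl14, Ccl27 and Nfkbie in KO against WT, and Cxcl12 and Cxcl14 in KO against Het.

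Cxcl14, a chemokine made constitutively in many epithelia and by fibroblasts of some tissues, differed most between genotypes. Its probe lies at chr13:55377968-55378027 on build mm7. The 4 KO arrays stood at 2.84, 2.46, 2.95 and 2.66 (replicates 2, 3, 4 and 5). The WT arrays stood at −4.43, −1.76, −1.51 and −1.61 (replicates 1, 2, 3 and 5). The Het arrays stood at −6.73, −2.04, −5.90 and −5.19 (replicates 2, 3, 4 and 5), and on Het replicates 2 and 4 the spot was not well above background. All KO arrays therefore lay far above all WT and Het arrays, KO values spanned less than 1 log2 unit, and the Het array numbered 3 lay among the WT arrays. The KO signal was 33.3 times that of WT cells (difference 5.06, SE 0.91, limma adjusted p = 0.0238). KO minus Het was 7.69 (SE 0.91, limma adjusted p = 0.00544), a value that rests partly on signals near background and ran from 7.10 to 8.66 with single arrays left out. Het minus WT was −2.64 (SE 0.91, limma adjusted p = 0.183), which did not pass the test, and WT and Het arrays overlapped. Without the 3 arrays numbered 3 the Het difference was −3.34 (limma adjusted p = 0.0174), and without Het replicate 3 alone it was also called. KO against Het was called with any single array left out. KO against WT kept its size, 4.36 to 5.33, but lost the call without WT replicate 2 or 5 or KO replicate 2, 4 or 5 (limma adjusted p up to 0.0919). With slide as a block it was 3.95 (limma adjusted p = 0.132). Within the slides that held both genotypes it was 4.48 (slide 3) and 4.41 (slide 4). Slide 3 gave 1 KO array against WT replicates 2 and 3, and slide 4 gave 2 KO arrays against 1 WT array. Within-slide values here and below compare only 1 or 2 arrays of each genotype, so they describe single arrays.

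Cxcl12, the ligand that retains blood progenitors in bone marrow through the receptor Cxcr4, was the other CXC chemokine called. Its main probe lies at chr6:117207552-117207611 on mm7. In KO cells it stood at 5.36, 4.50, 6.05 and 6.07 on replicates 2, 3, 4 and 5. In WT cells the levels were 2.90, 3.24, 3.53 and 3.39 on replicates 1, 2, 3 and 5, and in Het cells 3.97, 4.06, 3.45 and 3.30 on replicates 2, 3, 4 and 5. Every KO array was above every WT and Het array, with KO replicate 3 the lowest of its genotype. The KO signal was 4.70-fold that of WT (2.23, SE 0.33, limma adjusted p = 0.00990). It was 3.48-fold that of Het (1.80, SE 0.33, limma adjusted p = 0.0339). Het and WT differed by 0.43 (SE 0.33, limma adjusted p = 0.555). KO against WT was called with any single array left out (limma adjusted p 0.000855 to 0.0458). With slide as a block it was 2.20 (limma adjusted p = 0.0654), with 1.98 within slide 3 and 2.67 within slide 4. KO against Het kept its call without WT replicate 1 or any array numbered 3 and lost it without any of the other 8 arrays (limma adjusted p up to 0.124). It was 1.66 with slide as a block (limma adjusted p = 0.109), and was 0.75, 1.39 and 2.76 within slides 1, 3 and 4. On slide 1 that set KO replicate 3 against Het replicates 3 and 4, and on slide 3 it set 1 array against 1.

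A second Cxcl12 probe, at chr6:117200799-117200858 on mm7, gave the same direction with wider spread. Its KO levels were 3.11, 3.03, 3.81 and 3.79 and its WT levels 1.47, 0.63, 2.65 and 1.09 in the same replicate order. On it Het replicate 3 stood at 3.75, among the KO arrays, while the other Het arrays stood at 1.75, 1.28 and 1.28. KO against WT was 1.97 on this probe (SE 0.56, limma adjusted p = 0.113, fitted with every probe separately) and KO against Het 1.42 (SE 0.56, limma adjusted p = 0.353), so neither difference passed there.

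**Figure D2:**
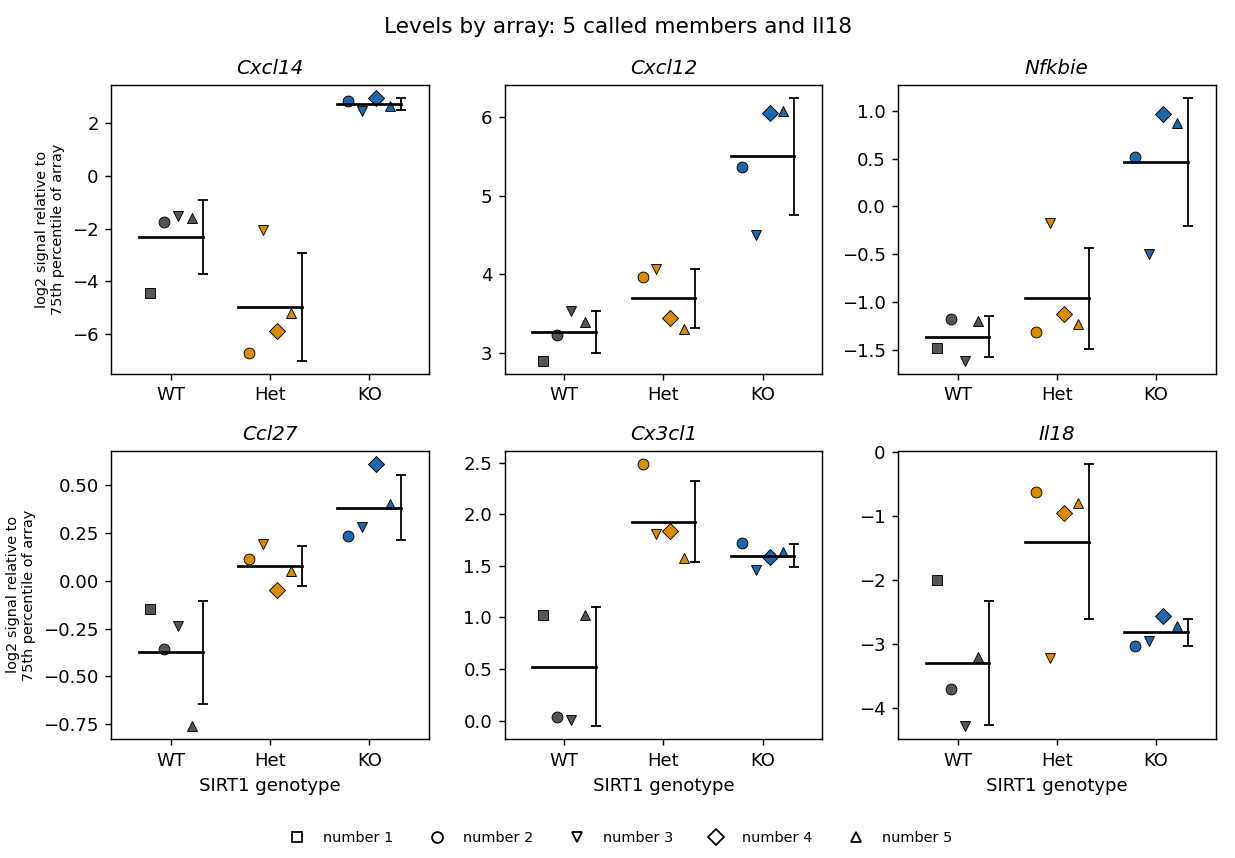
Level by array (y axis, log2 signal relative to the array's 75th percentile) of the 5 called members and Il18 in the 3 SIRT1 genotypes (x axis); symbols give the replicate number, lines the mean and bars 1 SD over 4 arrays, and each panel has its own y range. The KO arrays of Cxcl14 stand between 2.46 and 2.95, above all other arrays, and the Het array numbered 3 stands apart from its genotype in Cxcl14, Nfkbie and Il18.

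Cx3cl1, a membrane-anchored chemokine that binds Cx3cr1 on monocytes, was the only member called in Het against WT. A probe at chr8:93361886-93361945 on mm7 was well above background on 5 arrays and did not count as detected. It had means of −7.43, −7.27 and −6.63 in WT, Het and KO cells. The probe used here lies at chr8:93371329-93371388 on mm7. The Het arrays stood at 2.49, 1.81, 1.84 and 1.58 and the KO arrays at 1.72, 1.46, 1.58 and 1.63 (replicates 2, 3, 4 and 5). The WT arrays stood at 1.02, 0.04, 0.01 and 1.03 (replicates 1, 2, 3 and 5), below all arrays of the other genotypes and in a pair of low and a pair of high values. The Het signal was 2.65-fold that of WT (1.40, SE 0.28, limma adjusted p = 0.0403). KO minus WT was 1.07 (SE 0.28, limma adjusted p = 0.0850) and KO minus Het −0.33 (SE 0.28, limma adjusted p = 0.741). Neither passed. The Het call was likewise kept without WT replicate 1 or an array numbered 3, and lost without any of the other 8 arrays (limma adjusted p up to 0.140) and with slide as a block (1.66, limma adjusted p = 0.116), and the difference was 2.47 within slide 3 and 0.55 within slide 4.

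Cxcl10, an interferon-induced ligand of Cxcr3, showed no genotype difference that passed the test but split by replicate number. Outside number 3 its 9 arrays lay between 4.04 and 5.07. On the number 3 arrays of WT, Het and KO it stood at 0.51, 0.85 and 3.10, the lowest of each genotype. Number 3 minus the mean of the other arrays was −3.87, −3.77 and −1.58. KO against WT was 0.86 (SE 1.04, limma adjusted p = 0.752). Cxcl16, a transmembrane chemokine read by 2 probes, ranged from −3.71 to −1.51 and its KO mean was 0.79 above WT (SE 0.39, limma adjusted p = 0.348).

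The neutrophil-attracting CXC chemokines Cxcl1, Cxcl5 and Cxcl7 (current symbol Ppbp) share a gene cluster on chromosome 5, and the probes of Cxcl5 and Cxcl7 lie 8.71 kb apart on mm7. Cxcl5 was high on the number 3 arrays of WT, Het and KO, at 0.38, 1.40 and −0.64. Its other arrays stood at −3.98, −6.81 and −4.99 in WT (replicates 1, 2 and 5), at −3.84, −3.19 and −3.18 in Het and at −7.33, −5.29 and −5.73 in KO cells (replicates 2, 4 and 5). The number 3 array exceeded the mean of the others by 5.64, 4.80 and 5.48 in WT, Het and KO, whereas the widest genotype difference was −2.54 with an SE of 1.76 (KO against Het). On WT replicate 2 and KO replicate 2 the spots of Cxcl5 and Cxcl7 were not well above background. Both genes entered the test through Het cells alone, where their means were highest, so their differences from Het are partly set by that filter.

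Cxcl7 was also highest on number 3 in WT (−4.04, the others −5.61, −6.70 and −5.12) and KO cells (−2.01, the others −8.28, −5.52 and −5.72). In Het cells it stood at −4.57, −3.12, −3.10 and −3.01, where number 3 lay inside the range. Without the 3 arrays numbered 3, Cxcl7 was lower in KO than in Het (−2.94, limma adjusted p = 0.0493); with them the difference was −1.93 (SE 1.06, limma adjusted p = 0.551). Cxcl1 did not follow that split. It stood at 1.98 on WT replicate 1 and between −2.97 and −1.13 on the other 11 arrays, 8.64-fold above the next highest array.

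Of the 8 detected CC chemokines 1, Ccl27, was called, and for 6 of the 8 number 3 was the lowest array of every genotype on the main probe. Ccl2 and Ccl7, monocyte attractants whose probes lie 9.95 kb apart on chromosome 11, behaved alike over the arrays. Ccl2 stood at 5.61, 2.97, 0.54 and 3.04 in WT, at 4.12, 0.28, 4.22 and 4.37 in Het and at 3.95, 0.94, 4.57 and 4.52 in KO cells, in the replicate order used above. Ccl7 stood at 3.98, 1.33, −0.10 and 1.63 in WT, at 1.51, −1.81, 1.47 and 1.61 in Het and at 2.28, −0.08, 2.48 and 2.33 in KO cells. Both were lowest on number 3 in every genotype and highest of all on WT replicate 1. Number 3 minus the mean of the other arrays was −3.33, −3.95 and −3.41 for Ccl2 in WT, Het and KO cells. For Ccl7 it was −2.41, −3.34 and −2.44. The genotype differences of Ccl2 were 0.20, 0.45 and 0.25 (Het against WT, KO against WT and KO against Het), each with an SE of 1.22.

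Ccl5, a T cell and monocyte attractant, and Ccl9, a macrophage-produced attractant, lie on the same chromosome, 48.9 kb apart by their probes. Ccl5 stood at 0.76, 1.27 and 2.25 on the number 3 arrays of WT, Het and KO and between 3.72 and 5.33 on the other 9. Ccl9 stood at −3.37, −4.39 and −4.43 on number 3 and between −2.76 and −1.33 elsewhere. Neither was called over all 12 arrays. Without number 3, Ccl9 was lower in KO cells, at −0.57 relative to WT (limma adjusted p = 0.0436) and at −1.11 relative to Het (limma adjusted p = 0.00332), each with an SE of 0.16 and with a KO range of −2.76 to −2.54.

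**Figure D3:**
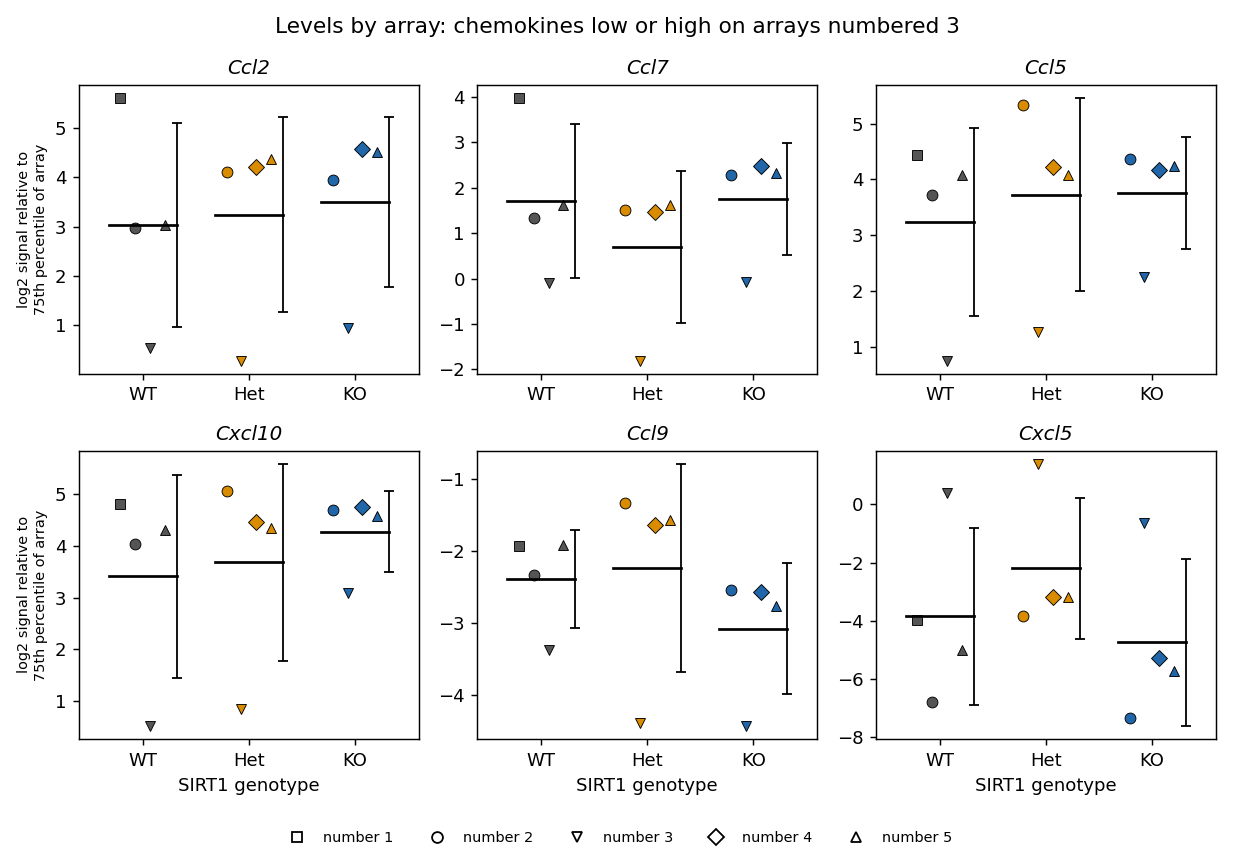
Level by array (y axis, log2 signal relative to the array's 75th percentile) of 6 chemokines in the 3 SIRT1 genotypes (x axis); symbols give the replicate number, lines the mean and bars 1 SD over 4 arrays, and each panel has its own y range. The downward triangles, number 3, are the lowest array of each genotype for Ccl2, Ccl7, Ccl5, Cxcl10 and Ccl9 and the highest for Cxcl5.

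Ccl27 (current symbol Ccl27a), a skin-homing chemokine, was the CC chemokine called. It has near-identical copies on chromosome 4 that this probe, at chr4:41908195-41908254 on mm7, may not tell apart. The WT arrays stood at −0.15, −0.36, −0.24 and −0.76, the Het arrays at 0.11, 0.20, −0.05 and 0.05, and the KO arrays at 0.24, 0.28, 0.61 and 0.40. No 2 genotypes overlapped, in the order WT, Het, KO, although the lowest KO array exceeded the highest Het array by only 0.04. KO against WT was 1.69-fold (0.76, SE 0.16, limma adjusted p = 0.0429), Het against WT 0.45 (SE 0.16, limma adjusted p = 0.191) and KO against Het 0.31 (SE 0.16, limma adjusted p = 0.524). The call was kept without WT replicate 1 or an array numbered 3, and lost without any of the other 8 arrays (limma adjusted p up to 0.164) and with slide as a block (0.88, limma adjusted p = 0.120). Within slides 3 and 4 the difference was 0.53 and 1.27.

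Of the other CC chemokines, Ccl20, the ligand of Ccr6, was weak, well above background on 7 arrays (2 WT, 1 Het and 4 KO). It entered the test through KO cells alone, where its mean was highest, so its KO differences are partly set by that filter. Its KO arrays, −5.35, −5.86, −4.72 and −4.96, lay above the WT arrays, −5.97, −6.29, −7.73 and −6.03, with a difference of 1.28 that did not pass (SE 0.42, limma adjusted p = 0.156) and did without number 3 (1.09, SE 0.19, limma adjusted p = 0.00565). Ccl25, a thymus and gut chemokine, ranged on its main probe from −1.40 (WT replicate 3) to 1.36 (WT replicate 2). Without number 3 the main probe was lower than in WT in Het (−0.87, limma adjusted p = 0.0173) and KO cells (−0.91, limma adjusted p = 0.0111). A second detected probe was likewise lowest on number 3 of WT, Het and KO (−3.93, −4.22 and −3.16). Another, weaker probe, well above background on 10 arrays, went the other way. It was highest on number 3 of WT, Het and KO (−4.81, −5.03 and −4.71). Ccl19, a ligand of Ccr7, ranged from −5.38 to −3.42 with differences of 0.28, 0.41 and 0.13, none called.

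Il18, a cytokine of the interleukin 1 family stored as a precursor, came nearest to a call among the interleukins. It stood at −0.63, −0.95 and −0.79 on Het replicates 2, 4 and 5, and at −3.21 on Het replicate 3. The WT arrays stood at −1.99, −3.69, −4.28 and −3.20 and the KO arrays at −3.02, −2.95, −2.56 and −2.71. Apart from number 3, every Het array lay above every WT and KO array. Over all arrays Het against WT was 1.90 (SE 0.58, limma adjusted p = 0.137) and KO against Het −1.42 (SE 0.58, limma adjusted p = 0.376), and neither passed. Without number 3 these were 2.17 (SE 0.38, limma adjusted p = 0.00810) and −1.98 (SE 0.38, limma adjusted p = 0.0125). With slide as a block and all arrays, Het against WT was 2.70 (limma adjusted p = 0.126), with 3.36 within slide 3 and 2.41 within slide 4.

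Il6, the interleukin that signals through gp130, was weak except on WT replicate 1. There it stood at −1.84, 4.19-fold above the next highest array. Elsewhere it stood at −5.74, −8.29 and −4.77 in WT (replicates 2, 3 and 5), at −4.24, −6.80, −4.11 and −3.90 in Het and at −5.75, −5.34, −5.12 and −5.50 in KO cells. On WT replicates 2 and 3 and Het replicate 3 the spot was not well above background. Its differences were 0.40, −0.27 and −0.66, each with an SE of 1.09. Il11, of the same gp130 family, was likewise highest on WT replicate 1 (−1.46), with the other arrays between −3.08 and −1.96.

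Il15, a growth factor of natural killer cells, was read by 2 probes that differed. At its main probe KO against Het was −0.57 (SE 0.23, limma adjusted p = 0.365) and KO against WT −0.30 (SE 0.23), while at the other KO against WT was −1.94 (SE 0.69, limma adjusted p = 0.195). Without number 3 the main probe was lower in KO than in Het (−0.85, SE 0.19, limma adjusted p = 0.0284). Il7, which lymphocyte precursors need, ranged from −6.78 to −3.61, and Il16, a ligand of CD4, from −5.44 to −3.33, each highest on WT replicate 1. Il28, current symbol Ifnl3 and an antiviral interferon lambda, was well above background on 1 WT, 2 Het and 4 KO arrays, with a Het mean 0.73 above WT (SE 0.28, limma adjusted p = 0.228). The main probes of Il13, Il24 and Il27 were well above background on all 12 arrays, with no call. Their ranges were −5.84 to −4.32, −4.97 to −3.75 and −2.09 to −1.09. Other probes of Il16 and Il24 were well above background on 0 arrays.

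Csf1, the macrophage colony-stimulating factor, was the only colony-stimulating factor detected. It stood at 4.82, 4.21, 3.13 and 3.89 in WT, at 3.50, 3.03, 3.65 and 3.81 in Het and at 4.44, 3.37, 3.94 and 3.90 in KO cells. Number 3 was lowest in each genotype and WT replicate 1 highest of all. Its differences were −0.52, −0.10 and 0.41 with an SE of 0.34, and none was called.

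Nfkbie encodes IkappaB-epsilon, which like IkappaB-alpha holds NF-kappaB in the cytoplasm. Its probe lies at chr17:43692455-43692514 on mm7. It stood at 0.52, −0.50, 0.96 and 0.87 in KO cells, at −1.48, −1.17, −1.61 and −1.20 in WT cells and at −1.31, −0.17, −1.13 and −1.23 in Het cells. The KO arrays lay above all WT arrays, and the number 3 arrays of KO and Het, the lowest and the highest of their genotypes, crossed. The KO signal was 3.55-fold that of WT (1.83, SE 0.34, limma adjusted p = 0.0256). KO against Het was 1.42 (SE 0.34, limma adjusted p = 0.0911) and did not pass, and was 2.01 without number 3 (SE 0.16, limma adjusted p = 0.000165). KO against WT kept its direction without any single array (1.66 to 2.15) but lost the call without WT replicate 1, 2 or 5 or KO replicate 2, 4 or 5 (limma adjusted p up to 0.104). With slide as a block it was 1.74 (limma adjusted p = 0.1496), with 1.91 within slide 3 and 2.12 within slide 4.

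In Nfkbia a single array stood apart. WT replicate 1 stood at 5.59, 3.13-fold above the next highest array, and the other WT arrays at 2.97, 2.41 and 2.62. The Het arrays stood at 2.98, 2.94, 2.71 and 2.98 and the KO arrays at 3.52, 3.44, 3.94 and 3.90. The KO arrays lay above all Het arrays and above all WT arrays but replicate 1. KO against WT was 0.30 (SE 0.56, limma adjusted p = 0.853) with that array and 1.04 without it (SE 0.19, limma adjusted p = 0.0325). KO against Het was 0.80 with or without that array, which is in neither genotype and enters only the shared spread. The SE of this difference was 0.56 with that array (limma adjusted p = 0.676). Without it the SE was 0.17 (limma adjusted p = 0.0676).

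Both patterns that set single arrays apart took in 9 of the 29 detected members, each read on its main probe. WT replicate 1 was the highest of all 12 arrays for Ccl2, Ccl7, Csf1, Cxcl1, Il6, Il7, Il11, Il16 and Nfkbia, 31.0% of the members, where it was highest for 10.3% of all features. It was the lowest for Cxcl12 and Il27, 6.9% of the members, where it was lowest for 17.5% of all features. Number 3 was the lowest array in each of the 3 genotypes for Ccl2, Ccl5, Ccl7, Ccl9, Ccl20, Ccl25, Csf1, Cxcl10 and Il16, also 31.0%, against 8.94% of all features. It was the highest in each for Cxcl5, 3.45% of the members, against 7.23%. A weaker Ccl25 probe was also highest on number 3 in each genotype. Ccl2, Ccl7, Csf1 and Il16 stand in both lists. WT replicate 1 was alone on its slide, so that slide and that array cannot be told apart.

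**Figure D4:**
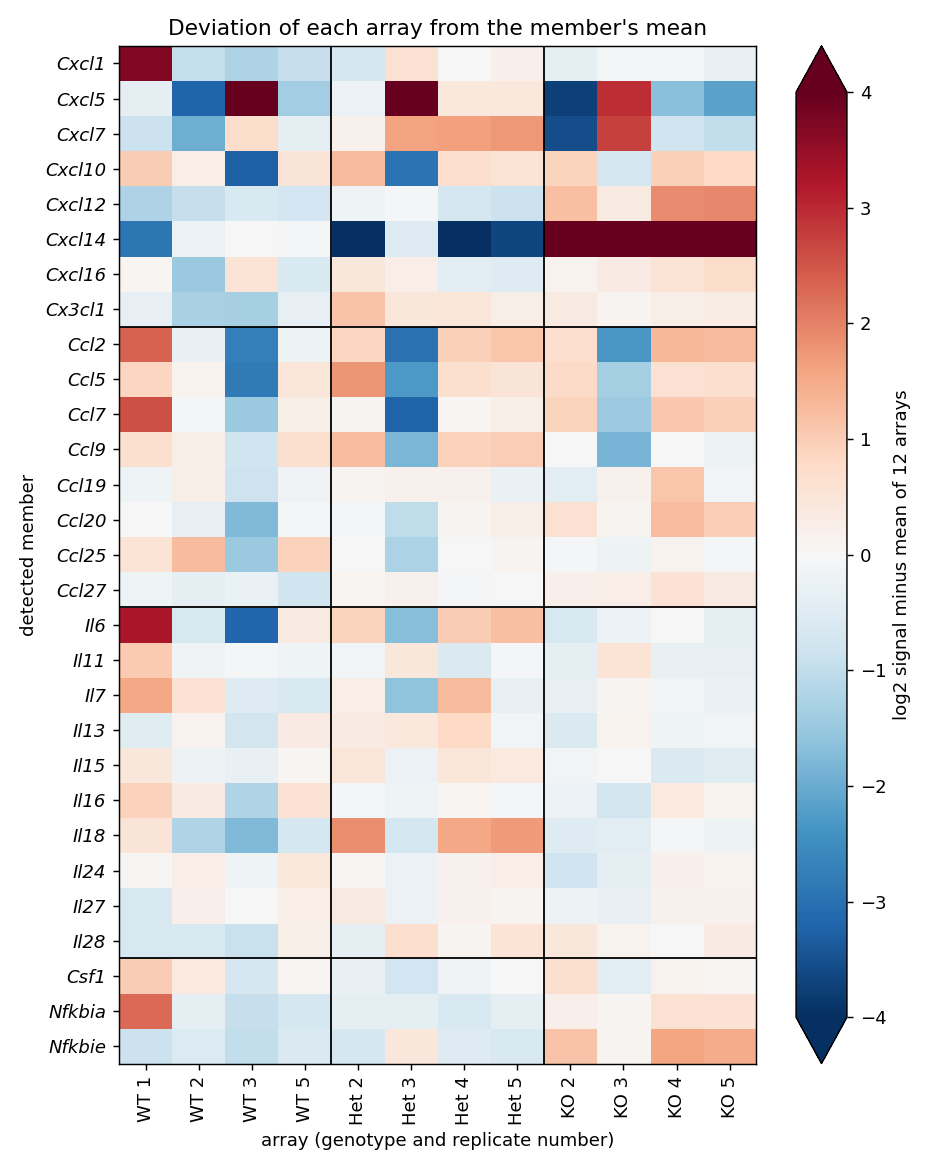
Deviation of each array (x axis, genotype and replicate number) from the mean over 12 arrays of each detected member (y axis), in log2 units by colour; colours end at −4 and 4, which values of Cxcl14 and Cxcl5 exceed, and lines divide genotypes and gene classes. The red block of Cxcl14 over the KO arrays, the red cells of WT 1 (Cxcl1, Il6, Ccl2, Ccl7, Nfkbia) and the blue cells of the arrays numbered 3 (Ccl2, Ccl5, Ccl7, Cxcl10) stand out, as do the red cells of Cxcl5 on number 3.

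Promoter sequence was read for the 20 detected members present in a RefSeq promoter table of assembly GRCm38.p6, over windows of 250 bases before to 50 after each gene's start. The NF-kappaB motif, searched as GGGNNNTTCC on both strands, was in the windows of 9 of the 20: Ccl9, Ccl20, Csf1, Cxcl1, Cxcl10, Il6, Il16, Nfkbia and Nfkbie. It was in 5.56% of all 32851 windows, or 6.31% of 27025 genes. The interferon-type motif GAAANNGAAA was in Ccl19, Cxcl10 and Cxcl14, 3 of the 20, and in 3.44% of all windows. The 2 motifs do not overlap in these windows, and matches on opposite strands can overlap, as in Cxcl1. Of the 9 genes that were highest on WT replicate 1, 6 were in the table and 5 of these held the NF-kappaB motif (Csf1, Cxcl1, Il6, Il16 and Nfkbia), against 4 of the other 14. Of the 9 genes lowest on number 3, 6 were in the table. The motif was in 5 of these (Ccl9, Ccl20, Csf1, Cxcl10 and Il16), against 4 of the other 14. Csf1 and Il16 count in both groups, so these counts are not independent. Both groups were picked from these same levels, and the counts were not tested. A match describes the letters of a window and is not a binding site measured here.

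The stretches below show the motif in the 2 inhibitors, in the 2 genes that stood out furthest on WT replicate 1, and in Cxcl10, where both motifs occur; each ends at the base before the start, is written 5′ to 3′ on the gene's strand, and has motif matches in capitals. They lie at chr12:55492648-55492797 (minus strand) for Nfkbia, chr17:45555550-45555699 (plus) for Nfkbie, chr5:90891095-90891244 (plus) for Cxcl1, chr5:30012964-30013113 (plus) for Il6 and chr5:92348890-92349139 (minus) for Cxcl10, on GRCm38.p6.
Nfkbia: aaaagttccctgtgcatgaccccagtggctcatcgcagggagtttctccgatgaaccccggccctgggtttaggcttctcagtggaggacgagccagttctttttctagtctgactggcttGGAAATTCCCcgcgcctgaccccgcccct
Nfkbie: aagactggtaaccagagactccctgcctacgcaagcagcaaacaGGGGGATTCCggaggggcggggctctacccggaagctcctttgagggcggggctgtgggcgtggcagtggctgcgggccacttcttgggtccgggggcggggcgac
Cxcl1: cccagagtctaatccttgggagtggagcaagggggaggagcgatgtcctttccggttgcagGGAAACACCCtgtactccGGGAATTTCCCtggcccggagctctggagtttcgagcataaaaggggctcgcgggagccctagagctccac
Il6: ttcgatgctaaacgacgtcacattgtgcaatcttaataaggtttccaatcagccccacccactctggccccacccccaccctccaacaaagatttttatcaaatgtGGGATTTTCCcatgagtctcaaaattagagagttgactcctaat
Cxcl10: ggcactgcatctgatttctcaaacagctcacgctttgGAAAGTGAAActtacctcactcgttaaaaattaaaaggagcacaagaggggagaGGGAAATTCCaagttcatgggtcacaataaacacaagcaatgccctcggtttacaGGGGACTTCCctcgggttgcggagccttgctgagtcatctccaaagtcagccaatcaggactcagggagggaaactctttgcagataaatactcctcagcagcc

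The match begins 29 bases before the start in Nfkbia and 106 in Nfkbie, the inhibitor that was called in KO cells. In Cxcl1 matches begin 89, 71 and 70 bases before the start, the last pair lying on opposite strands and overlapping, shifted by 1 base. In Il6 the match begins 44 bases before the start. In Cxcl10 the NF-kappaB matches begin 159 and 104 bases and the interferon-type match 213 bases before it. The window of Cxcl14 held an interferon-type match 172 bases before the start and no NF-kappaB match, and those of Cxcl12 and Cx3cl1 held neither.

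The receptors of the chemokines were mostly dim. Of 22 chemokine receptors on the array 5 were tested, and none was called in the 3 comparisons. Ackr3 (Cmkor1 on the array), a scavenging receptor of Cxcl12, was 1.06 higher in KO than in Het without overlap, but did not pass (SE 0.38, limma adjusted p = 0.286), and was 0.33 higher in KO than in WT (limma adjusted p = 0.734). Cxcr6, the receptor of Cxcl16, was well above background on 1 WT, 0 Het and 4 KO arrays, with KO levels of −7.23 to −5.10, and was not called. Of 43 interleukin and haematopoietic cytokine receptors 25 were tested. Il31ra was lower in Het than in WT (−1.51, SE 0.31, limma adjusted p = 0.0435), with 2 of the 4 Het spots well above background, and Il1r1, the receptor of interleukin 1, was lower in KO than in Het (−1.01, SE 0.21, limma adjusted p = 0.0499). In KO against WT none of the 25 was called, the smallest adjusted p being that of Il31ra (−1.15, limma adjusted p = 0.0963).

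Of 53 genes of the NF-kappaB pathway and its targets, 47 were tested. Called were 1 in Het against WT, 2 in KO against WT and 1 in KO against Het. Over all features 1.17%, 1.64% and 0.995% were called in that order. Tlr4, the receptor of bacterial lipopolysaccharide, was higher in Het than in WT (1.01, SE 0.21, limma adjusted p = 0.0445). Tlr2, the receptor of bacterial lipoproteins, and Tnip1, an A20-binding inhibitor of the pathway, were higher in KO than in WT (1.40, SE 0.25, limma adjusted p = 0.0239, and 0.67, SE 0.14, limma adjusted p = 0.0459). Vcam1, an adhesion molecule for leukocytes, was lower in KO than in Het (−1.45, SE 0.27, limma adjusted p = 0.0339). The list's medians were −0.01, −0.05 and −0.05 beside 0.08, 0.08 and −0.02 over all features. Of 27 genes of gp130 and JAK-STAT signalling 25 were tested and none was called; Socs1, a feedback inhibitor, came nearest in Het against WT (0.91, limma adjusted p = 0.0731) and Stat6 in KO against Het (−0.53, limma adjusted p = 0.0669).

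Markers of other cells that make or follow these ligands were measured beside them. Of 18 macrophage and other leukocyte markers, Ptprc (CD45), Cybb, Mrc1 and Msr1 were well above background on 0 arrays, and those well above background on all 12 included Cd14, Cd3e, Cd68 and Fcer1g. The log2 of the summed level of the 18 ranged from 0.13 to 1.21 in WT (highest on WT replicate 1), from −0.03 to 1.05 in Het (lowest on Het replicate 3) and from −0.02 to 0.26 in KO cells. Of 8 endothelial markers Pecam1 and Tie1 were well above background on 0 arrays, and the summed level ranged from −0.82 to 2.39 in WT, from −1.44 to 0.75 in Het and from −0.87 to 0.10 in KO cells. Of 4 mesothelial markers Wt1 was well above background on 0 arrays. Their summed level was −0.91, 2.59 and 2.76 on the number 3 arrays of WT, Het and KO, the lowest of each genotype. It reached 5.58, 4.31 and 4.95 in the same order. That sum was mostly Msln, which stood at −1.10, 2.59 and 2.75 on number 3. Upk3b went the other way in WT and KO cells, where number 3 was its highest array (−4.15 and −5.42). Of 8 epithelial markers 4 were well above background on all arrays, and the summed level ranged from 1.49 to 4.18 in WT, from 0.24 to 1.81 in Het and from 1.71 to 2.52 in KO cells. Among fibroblast markers Thy1 was lower in KO than in WT and Het, and Dcn lower in KO than in Het. Of the other lists' genes, Krt8 was called higher and Upk3b lower in Het against WT, and Tacstd1 (current symbol Epcam) higher in KO against WT. Arrays well above background in WT, Het and KO numbered 1, 4 and 4 for Krt8 and 4, 0 and 2 for Upk3b. For Tacstd1 they numbered 1, 3 and 4. The lower group of each call was thus mostly at background. Upk3b and Tacstd1 entered the test only through the genotype where they were highest. The part of these markers in the chemokine differences was not tested, and in such bulk samples fewer cells of a type and less RNA per cell cannot be told apart.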

How the data were processed

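RNA of 12 MEF samples was labelled with Cy3 and read on 1-colour Agilent arrays. Per the file headers and the submitters' processing notes, spots were extracted with Agilent Feature Extraction 9.5. The deposited processed signal is an intensity on a linear scale, background-subtracted and not scaled between arrays; the deposited series table holds the same intensity, with a largest relative difference of 0. From these deposited intensities the log2 was taken and each array's 75th percentile (intensity 1704 to 3082) subtracted. Control and outlier spots were left out, spots of a probe averaged, and the probe with the highest mean stood for a gene. Features well above background on all arrays of at least 1 genotype were tested with limma 3.58.1 (R 4.3.3) in 1 fit of 12 arrays. Coordinates of probes are those of the array files (mm7); 75 member probes were matched to current symbols by accession and 10 by symbol, and no gene model of mm7 was used here, so exon or UTR positions are not given. The number of arrays limits the precision.

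Replicate numbers were checked for pairing: over 10 same-number pairs the correlation of deviations ran from −0.036 to 0.427 and exceeded 0.1 in 5, among them the 3 pairs of number 3 (0.427, 0.221 and 0.36). Since not every pair exceeded it, the numbers were not taken to pair the samples. Members and lists were chosen with earlier results of these data known. All detected members are named, and those called or among the 5 smallest p of a comparison get full statistics, as do the called genes and up to 3 leading genes of each pathway list; members with the widest ranges are given by array. Alternatives were normexp (offset 50), quantile or no scaling, other filters, every probe, slide and replicate blocks, fewer samples and leaving out each array. Figures were drawn with matplotlib 3.10.9.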

Additional observations from a re-analysis of the deposited data

Results flagged for a closer look

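Of 87 groups of 4 arrays (29 members in 3 genotypes), 20 had a highest or lowest array set apart beyond Dixon's critical value. Among independent groups chance alone gives this in about 1 in 20. The groups here share the same arrays, so that rate does not carry over to them. The share of such groups over all features is not given, so an excess particular to these members was not tested. Of the 20, Het replicate 3 accounts for 9, KO replicate 3 for 5 and WT replicate 1 for 3.

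On Het replicate 3, Ccl2 stood lowest at 0.28 (nearest array 4.12), Ccl7 at −1.81 (1.47), Ccl9 at −4.39 (−1.64), Ccl25 at −1.16 (0.10), Il6 at −6.80 (−4.24), Il15 at −4.35 (−3.72) and Il18 at −3.21 (−0.95). On the same array Cxcl5 stood highest at 1.40 (−3.18) and Nfkbie at −0.17 (−1.13). On KO replicate 3, Ccl5 stood lowest at 2.25 (4.17), Ccl7 at −0.080 (2.28), Ccl9 at −4.43 (−2.76) and Cxcl10 at 3.10 (4.58), and Il11 highest at −1.96 (−2.80).

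On WT replicate 1, Cxcl1 stood highest at 1.98 (−2.65) and Il11 at −1.46 (−2.55), and Cxcl14 lowest at −4.43 (−1.76). The remaining 3 are Cxcl7 on Het replicate 2 at −4.57 (−3.12), Nfkbia on Het replicate 4 at 2.71 (2.94) and Ccl19 on Het replicate 5 at −4.80 (−4.42), each the lowest of its genotype.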

How the results depend on the processing

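Counts below are in the order Het against WT, KO against WT and KO against Het. The reported fit called 199, 278 and 169 features, 1, 4 and 2 of them members. None of the 15 differences given with full statistics changed sign under any alternative. Over all 87 differences of members 46 changed sign under some alternative, none of them called in the reported fit or there. Without WT replicate 3, KO against WT turned to −0.02 for Nfkbia and −0.11 for Cxcl10, and Het against WT to −0.63 for Ccl2 and −0.65 for Il6. Features called were 42, 149 and 69 with normexp; 33, 96 and 62 with no filter on dim probes; 31, 57 and 80 with slide as a block; 2071, 2934 and 1521 without the 3 arrays numbered 3; and 34, 107 and 282 with only the 2 genotypes compared. Without scaling they were 79 and 142 for the comparisons with WT, and the median difference of all features moved to −0.16, 0.09 and 0.23. Of the calls 14 of 79, 82 of 142 and 134 of 164 were then higher, against 114, 165 and 99 in the reported fit. Leaving out each array gave 15 to 1374, 51 to 1652 and 26 to 379 features, the highest without WT replicate 3 in the comparisons with WT and without Het replicate 3 in KO against Het, and 0 to 3, 1 to 4 and 1 to 4 members.

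Members called in Het against WT were 0 with normexp, no scaling, no filter, slide as a block or only 2 genotypes, and 4 without number 3. In KO against WT they were 1 with no filter, 0 with slide as a block, 2 with only 2 genotypes and 7 without number 3. In KO against Het they were 1 with no filter, with only features well above background on all 12 arrays, or with slide as a block, and 8 without number 3. The setting with all 12 arrays left Cxcl14 untested, as it was well above background on 10. The member counts without number 3, out of 29, stand beside 2071, 2934 and 1521 of all 16989 features. They include Ccl20 in both comparisons of KO cells and Cxcl7 in KO against Het. Each of these entered the test through 1 genotype alone, so its calls are partly set by that filter.

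With the replicate number as a replicate block, 82, 115 and 153 features were called, and 0, 1 (Ccl20) and 2 members (Cxcl14 and Cxcl5). Ccl20 entered the test through KO cells alone and Cxcl5 through Het cells alone, so these calls are partly set by that filter. Cx3cl1 in Het against WT, Cxcl12, Cxcl14, Nfkbie and Ccl27 in KO against WT and Cxcl12 in KO against Het were then not called. With the replicate block over numbers 2, 3 and 5 the features were 0 (1944 at an unadjusted limma p under 0.05), 9 and 9, and the members 0 in each comparison.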
